A study of Mus musculus with 44 samples.

Results

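The interferon-stimulated genes described here were a list of 37 genes, out of 31484 genes into which the deposited transcripts of mouse gastric corpus could be summed. They were named as genes known to be transcribed when interferons reach a cell. The list was chosen with earlier results of these data known, so its choice supports nothing. The 44 libraries came from BalbC mice aged 13 months and fell into 4 groups. WT/PEG (11 libraries) were wild-type mice given polyethylene glycol, the vehicle. WT/NTZ (9 libraries) were wild-type mice given the gastrin receptor antagonist netazepide (NTZ, labelled YF). KO/PEG (13 libraries) and KO/NTZ (11 libraries) received the same vehicle or NTZ and were knockouts for the beta subunit of the H+/K+ATPase, the gastric proton pump that parietal cells need to secrete acid.

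Interferons are secreted proteins that alert cells to infection. Type I and type III interferons, and to a different degree the type II interferon made by T and NK cells, act through receptor-bound Janus kinases on STAT proteins, which enter the nucleus. A complex of STAT proteins with IRF9 binds an element called the ISRE, found before many antiviral genes, while STAT dimers bind an element called GAS, found before many genes that answer type II interferon. Epithelial cells as well as leukocytes can respond in this way.

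The promoters of the list show these elements. Windows of 300 bases, from 250 before to 50 after each start in RefSeq (build GRCm38.p6), were at hand for 29 of the 37 genes. Usp18, Zbp1, Mx1, Mx2, Oas2, Gbp4, Ly6e and Ly6a had none. The core of the ISRE, searched on both strands as GAAA, any 2 bases and GAAA again, was in a window of 17 of the 29 genes (58.6%), against 3.99% of the 27025 genes with a window. The GAS letters, searched as TTCNNNGAA, which read the same on both strands, were in 7 of the 29 (24.1%), against 9.55% of all. The elements can overlap one another. All 5 interferon-inducible GTPases with a window (Gbp2, Gbp3, Gbp7, Igtp and Irgm1) held the ISRE core. A match says only that the letters are there.

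The last 150 bases before the start are printed for 6 genes on which the results below turn, 5′ to 3′ on the strand of the gene, none of them inside the annotated span of that gene. Capitals mark the ISRE core (either strand) in the first 4. Isg15 lay at chr4:156200819-156200968 (minus strand), Bst2 at chr8:71537473-71537622 (minus), Rsad2 at chr12:26456453-26456602 (minus) and Igtp at chr11:58199406-58199555 (plus).
Isg15: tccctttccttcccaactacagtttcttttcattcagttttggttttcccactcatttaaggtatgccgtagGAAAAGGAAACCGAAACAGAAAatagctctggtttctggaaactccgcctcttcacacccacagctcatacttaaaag
Bst2: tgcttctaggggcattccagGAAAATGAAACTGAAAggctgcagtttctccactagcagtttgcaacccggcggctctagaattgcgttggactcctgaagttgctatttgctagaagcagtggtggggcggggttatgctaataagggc
Rsad2: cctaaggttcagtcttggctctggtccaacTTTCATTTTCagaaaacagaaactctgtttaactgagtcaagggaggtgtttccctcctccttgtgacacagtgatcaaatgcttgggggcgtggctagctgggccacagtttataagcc
Igtp: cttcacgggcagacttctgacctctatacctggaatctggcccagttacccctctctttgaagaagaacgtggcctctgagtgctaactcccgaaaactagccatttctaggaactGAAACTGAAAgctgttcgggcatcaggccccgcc
In the next 2, capitals mark the GAS letters. Gbp7 lay at chr3:142530186-142530335 (plus) and Irf1 at chr11:53769864-53770013 (plus).
Gbp7: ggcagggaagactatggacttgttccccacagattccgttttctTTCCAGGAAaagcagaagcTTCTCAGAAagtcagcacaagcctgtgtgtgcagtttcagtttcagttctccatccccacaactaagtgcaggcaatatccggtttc
Irf1: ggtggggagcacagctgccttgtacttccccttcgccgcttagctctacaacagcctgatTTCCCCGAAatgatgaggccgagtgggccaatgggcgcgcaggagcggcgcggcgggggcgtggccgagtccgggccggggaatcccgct
In the promoter of Isg15 the core occurs 3 times in one overlapping run, ending 56 bases before the start. In Igtp a single core ends 24 bases before it. Gbp7 holds the GAS letters at 2 places.

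Levels are given as CPM, counts scaled to a common library total with TMM normalization, which compare libraries but not genes of different length. Libraries held between 6065084 and 21945124 estimated counts. The targeted gene Atp4b followed the labels, at 3923 ± 713 CPM (SD, n = 11) in WT/PEG and 6.84 ± 3.86 CPM (n = 13) in KO/PEG. Of the list, 36 genes passed the filter on low counts and were tested. Oas1a did not pass. A pair of WT/NTZ libraries, titled WT_86_WT_YF and WT_118_WT_YF and called animals A and B from here on, stood far apart from all others for these genes, and each result that rests on them is given with and without them. The animal numbers also differed between groups. All WT/PEG animals were numbered 100 or above but 10 of 11 KO/NTZ animals below 100. The WT/NTZ animals numbered 86 (animal A), 92, 93, 98 and 99 were below 100 too. What the numbers mean is not stated.

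On a scale corrected for transcript length (TPM), the list spanned a wide range in normal corpus. In WT/PEG the median level of B2m, the invariant chain of MHC class I, was 460 TPM, far above the next, Oasl1, at 31.8 TPM. Ly6e (22.5 TPM), Ly6a (17.4 TPM) and Bst2 (13.9 TPM) followed. The ranges of Ly6e (16.8 to 39.6 TPM) and Ly6a (12.4 to 27.6 TPM) overlapped over the WT/PEG libraries. From Oasl1 down all neighbours in this order overlapped, while B2m (420 to 730 TPM) did not overlap Oasl1 (20.2 to 58.0 TPM). At the low end, Oas3, Apol9b and Slfn4 had medians of 0.132, 0.118 and 0.0926 TPM, and Oas1a a median of 0.

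**Figure D1:**
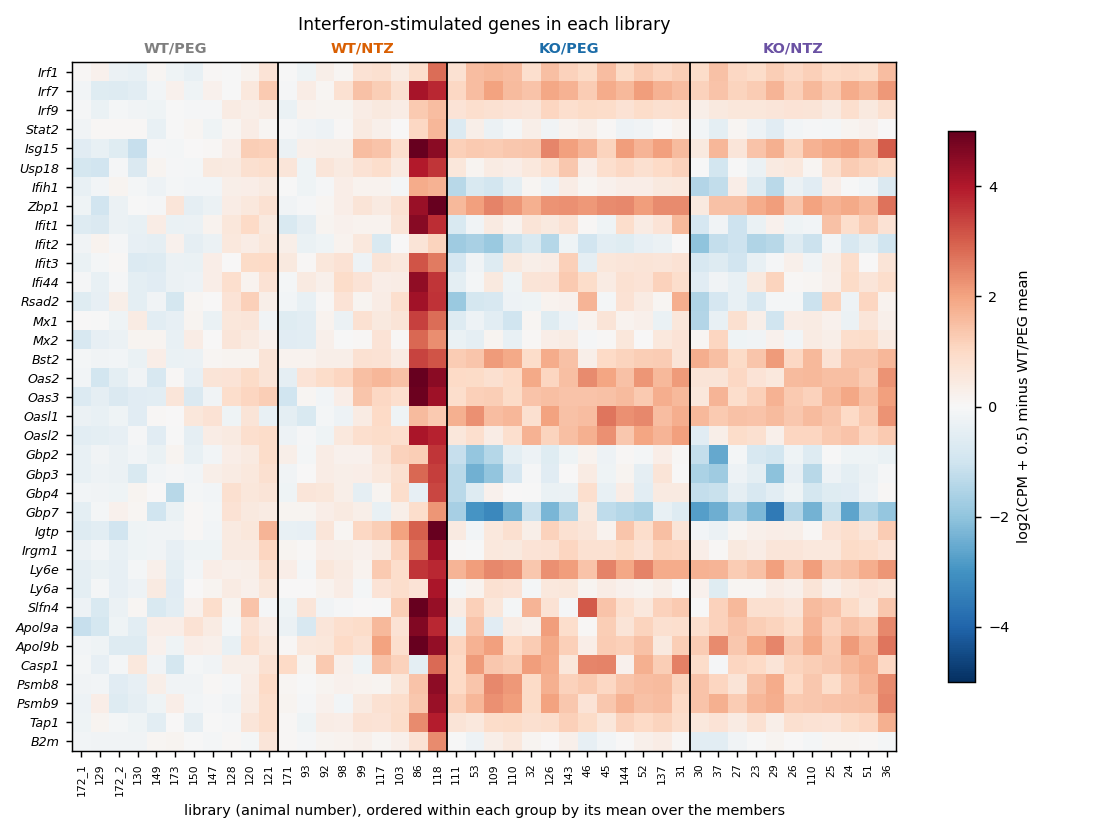
Level of the 36 tested genes (rows) in each of the 44 libraries (columns), as log2(CPM + 0.5) minus the WT/PEG mean, with colours ending at 5 in either direction. Animals A (WT_86_WT_YF) and B (WT_118_WT_YF) are dark red over most rows, while Gbp4, Ly6a and Casp1 are dark in animal B and not in animal A.

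The first comparison is of genotype without NTZ, KO/PEG against WT/PEG. In KO/PEG, 17 of the 36 genes were higher and 2 lower than in WT/PEG (edgeR's quasi-likelihood test, Benjamini-Hochberg adjusted over 14901 genes). The share called was 52.8%, against a background of 74.6% of all genes tested. The calls leaned upwards: 47.2% of the list was higher, against 37.5% of all genes, and 5.56% lower, against 37.2%. The median log2 fold change of the list was 0.77, against -0.003 over all genes tested. Without the 2 WT/NTZ libraries that stood apart, 22 genes were higher and 2 lower (background 38.3% and 36.4%), and all 19 remained called. Each of the 13 KO/PEG libraries lay above every WT/PEG library for 5 genes (Irf1, Irf9, Zbp1, Oasl1 and Ly6e), which is 13.9% of the list, against 5.46% of all genes.

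Among the transcription factors, 3 of 4 rose. Irf1, an activator induced by interferon and by other inflammatory signals, ranged in WT/PEG from 14.8 to 31.6 CPM with a median of 20.1, and in KO/PEG from 33.6 to 60.2 with a median of 46.01. The groups did not overlap, and the log2 fold change was 1.25 ± 0.22 (SE, edgeR adjusted p = 3.22e-06). Irf7, which amplifies type I interferon production, was at 4.28 to 17.7 CPM (median 6.29) in WT/PEG and 14.9 to 30.8 CPM (median 22.1) in KO/PEG. In 11 of 13 KO/PEG libraries it exceeded its highest WT/PEG value (log2 fold change 1.62 ± 0.36, edgeR adjusted p = 9.5e-05). Irf9, the DNA-binding partner of the STAT complex, had a median of 10.2 CPM (8.36 to 14.4) in WT/PEG and of 19.6 CPM (16.5 to 23.04) in KO/PEG. It was higher in 13 of 13 KO/PEG libraries, by 0.83 ± 0.14 on the log2 scale. Stat2, the remaining factor of that complex, had medians of 21.5 and 21.3 CPM, and its log2 fold change was -0.01 ± 0.15 (edgeR adjusted p = 0.977).

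All 4 of the tested oligoadenylate synthetase genes rose. These enzymes sense double-stranded RNA, and Oasl1 is a relative that lacks the enzyme activity. Oasl1 ranged from 35.2 to 86.6 CPM in WT/PEG (median 45.2) and from 92.1 to 333 CPM in KO/PEG (median 180), with no overlap. Its log2 fold change of 1.85 ± 0.23 had the smallest p of the list (edgeR adjusted p = 3.03e-09). Oas2 was at 0.597 to 3.61 CPM (median 1.39) in WT/PEG and at 3.18 to 10.1 CPM (median 5.38) in KO/PEG, and 12 of 13 KO/PEG libraries exceeded every WT/PEG library. For Oas3 and Oasl2 this held for 9 of 13 libraries each, with log2 fold changes of 1.54 ± 0.55 and 1.47 ± 0.41. Most reads of Oasl2 (77.4%) were assigned to a transcript annotated as subject to nonsense-mediated decay.

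The nucleic acid sensors differed from each other. Zbp1, a sensor of Z-form nucleic acid, had a median of 0.898 CPM (0.256 to 2.00) in WT/PEG and of 6.44 CPM (4.04 to 7.57) in KO/PEG. Its groups did not overlap, and its log2 fold change of 2.54 ± 0.53 was the largest of the list (edgeR adjusted p = 4.96e-05). Ifih1, which encodes the cytosolic RNA sensor MDA5, had medians of 12.0 and 13.8 CPM (log2 fold change -0.02 ± 0.24, edgeR adjusted p = 0.951). Isg15, a ubiquitin-like protein that is conjugated to other proteins, ranged from 0.815 to 6.35 CPM in WT/PEG (median 2.30) and from 5.87 to 15.7 CPM in KO/PEG (median 8.35), above every WT/PEG library in 11 of 13. It rose by a log2 fold change of 1.65 ± 0.50 (edgeR adjusted p = 0.0034). The protease that removes it, encoded by Usp18, had medians of 2.50 and 4.91 CPM and did not pass with all libraries in the fit (log2 fold change 0.71 ± 0.39, edgeR adjusted p = 0.0979), but did without animals A and B (edgeR adjusted p = 0.00649).

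Antiviral effectors, in contrast, mostly did not pass. Of 8, Bst2, which tethers budding virions to the cell, was the single one that rose (log2 fold change 1.35 ± 0.31, edgeR adjusted p = 0.000176), from a median of 9.28 CPM (7.88 to 15.8) in WT/PEG to 24.6 CPM (12.2 to 45.96) in KO/PEG. Ifit2, a protein of the Ifit family that limits translation of viral RNA, moved the other way. It had a median of 2.72 CPM (1.94 to 4.53) in WT/PEG and of 1.51 CPM (0.439 to 2.90) in KO/PEG, with overlap between the groups, and fell by 0.99 ± 0.27 on the log2 scale (edgeR adjusted p = 0.00106). The log2 fold changes of Ifit1, Ifit3, Ifi44, Rsad2, Mx1 and Mx2 lay between -0.11 and 0.64, with adjusted p values of 0.159 to 0.792. Ifi44 alone of these passed without animals A and B (edgeR adjusted p = 0.00876). Only 33.3% of the counts of Mx1 and 18.6% of those of Mx2 were on transcripts annotated as protein coding.

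Interferon-inducible GTPases, which attack the vacuoles of intracellular pathogens, did not rise with all libraries in the fit. Gbp7 fell, from a median of 5.43 CPM (2.40 to 9.07) in WT/PEG to 1.54 CPM (0.110 to 7.56) in KO/PEG, with overlapping groups (log2 fold change -1.43 ± 0.38, edgeR adjusted p = 0.00101). Gbp2, Gbp3 and Gbp4 had log2 fold changes of -0.40 ± 0.33, -0.39 ± 0.39 and -0.09 ± 0.32, none past the threshold. Igtp and Irgm1, of the other family of GTPases in the list, had positive ones of 0.60 ± 0.46 and 0.68 ± 0.34, which passed only without animals A and B (edgeR adjusted p = 0.0372 and 0.000136).

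Of the immunoproteasome and MHC class I genes, 3 of 4 rose. Psmb8 and Psmb9 encode the catalytic subunits that replace their constitutive counterparts in the immunoproteasome, and Tap1 a subunit of the peptide transporter. Psmb8 had a median of 6.83 CPM (4.86 to 15.6) in WT/PEG and of 20.2 CPM (14.98 to 41.6) in KO/PEG, and 11 of 13 KO/PEG libraries exceeded the highest WT/PEG value. Psmb9 behaved alike, with medians of 5.63 and 18.2 CPM (12 of 13 above), and both had log2 fold changes near 1.5 (1.50 ± 0.39 and 1.55 ± 0.37). Tap1, whose promoter overlaps that of Psmb9 on the opposite strand, had medians of 7.28 and 14.9 CPM (log2 fold change 0.88 ± 0.32, edgeR adjusted p = 0.0117). B2m itself had medians of 354 and 400 CPM and did not pass (log2 fold change 0.09 ± 0.18).

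Ly6e, a membrane protein that blocks entry of several viruses, was among the most altered of the remaining genes. It had a median of 20.4 CPM (15.6 to 38.9) in WT/PEG and of 94.9 CPM (57.1 to 126.1) in KO/PEG, without overlap (log2 fold change 2.03 ± 0.33, edgeR adjusted p = 9.94e-07). Its neighbour Ly6a, known as the stem cell antigen Sca-1, had medians of 13.9 and 15.9 CPM and did not pass. Casp1, the caspase that matures interleukin-1 beta, rose from a median of 0.970 CPM (0.357 to 2.11) to 4.83 CPM (1.33 to 8.47), with 11 of 13 KO/PEG libraries above all of WT/PEG (log2 fold change 2.10 ± 0.35, edgeR adjusted p = 1.72e-06). Apol9b and Slfn4 rose from levels of a few reads per library, with medians of 0.213 and 0.316 CPM in WT/PEG and 1.35 and 1.03 CPM in KO/PEG (edgeR adjusted p = 0.00334 and 0.0484). Apol9a and Apol9b are near-identical copies between which reads may be divided wrongly. Apol9a had medians of 2.67 and 3.87 CPM and passed only without animals A and B (log2 fold change 0.85 ± 0.46 and edgeR adjusted p = 0.09 with them, 0.00925 without). The sum of both had a median of 2.85 CPM (0.853 to 4.52) in WT/PEG and of 4.71 CPM (2.57 to 12.6) in KO/PEG, and exceeded every WT/PEG library in 7 of 13.

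Cell composition differed between the same groups. The summed level of 6 leukocyte markers was 26.1 to 83.7 CPM in WT/PEG and 55.2 to 279 CPM in KO/PEG, with 4 of the 6 higher and none at 0 in either group. That of 6 B and plasma cell markers was 11.7 to 69.4 CPM and 135 to 925 CPM, with no overlap and 6 of 6 higher. Parietal cell markers ran the other way, at 9310 to 15310 CPM in WT/PEG and 1971 to 7156 CPM in KO/PEG. The part of these shifts in the results above was not tested, and in bulk tissue fewer cells of a type cannot be told apart from less RNA per cell. All WT/PEG animals, but only 7 of 13 KO/PEG animals, had numbers of 100 or above. Within those numbers 13 genes of the list were higher and 3 lower. The background in that fit was 35.9% and 37.2% of all genes. There the share of higher genes was thus near the background, and only that of lower genes was below it.

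**Figure D2:**
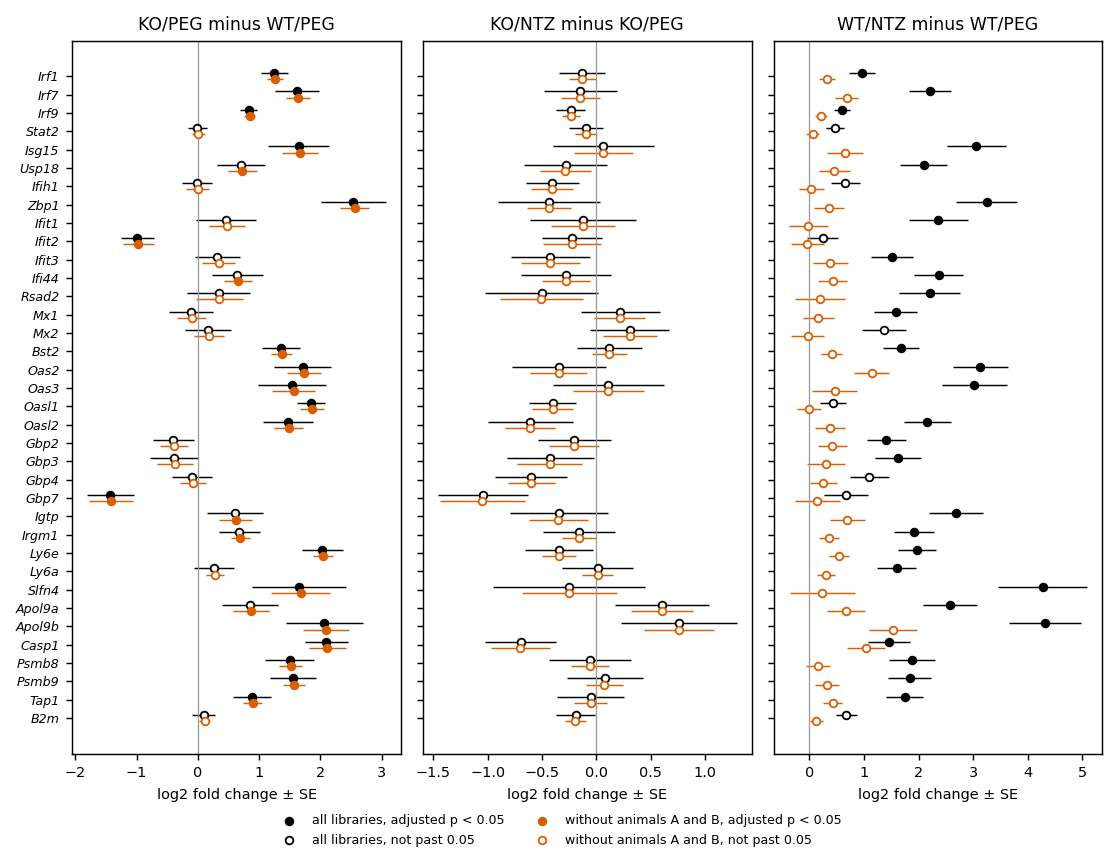
Log2 fold change with its SE for each tested gene in 3 comparisons, with all libraries (black) and without animals A and B (orange), filled where the edgeR adjusted p was under 0.05. Fold changes of the contrasts among KO/PEG, KO/NTZ and WT/PEG hardly move between the fits, while in WT/NTZ minus WT/PEG every filled point is black.

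The next comparison asks what gastrin receptor blockade did to these genes in KO mice. None of the 36 genes passed in KO/NTZ against KO/PEG, where the background was 5.56% of all genes (2.97% higher, 2.6% lower). Without animals A and B none passed either, against 5.89% (3.04% higher, 2.85% lower), with 11 at an unadjusted p under 0.05, near the 25% of all genes there (3767 of 15069). With all libraries 2 had an unadjusted p under 0.05, Gbp7 and Casp1, against 24.9% of all genes. DESeq2 and limma-trend also called none (background 8.38% and 5.73%). The median log2 fold change of the list was -0.21, against -0.01 over all genes, and 9 of the 36 values were positive. KO/NTZ and WT/PEG both serve as partners of KO/PEG here, so the values of both comparisons share the KO/PEG libraries.

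Of the 5 genes that did not overlap between KO/PEG and WT/PEG, 3 did not overlap between KO/NTZ and WT/PEG either. Oasl1 had a median of 139 CPM (104 to 247), Ly6e of 73.3 CPM (53.7 to 104) and Irf1 of 40.6 CPM (36.9 to 57.5). Each of these lay above all WT/PEG libraries in 11 of 11 KO/NTZ libraries. Against KO/PEG their log2 fold changes were -0.40 ± 0.22, -0.34 ± 0.31 and -0.13 ± 0.21. For the other two, Irf9 (13.3 to 19.6 CPM) and Zbp1 (1.55 to 9.18 CPM), 10 of 11 KO/NTZ libraries were above all of WT/PEG. Together with Bst2, Apol9a, Apol9b and Psmb9, Oasl1, Ly6e and Irf1 made 7 genes in which every KO/NTZ library exceeded every WT/PEG library, or 19.4% of the list, near the background of 16.0% of all genes. Isg15 had a median of 9.03 CPM (3.62 to 23.7) and its log2 fold change against KO/PEG was 0.07 ± 0.47.

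Gbp7 and Casp1 had the most negative estimates. Gbp7 had a median of 0.701 CPM (0 to 2.12) in KO/NTZ beside 1.54 CPM (0.110 to 7.56) in KO/PEG, a log2 fold change of -1.05 ± 0.41 (edgeR adjusted p = 0.116). Casp1 had medians of 2.79 and 4.83 CPM, a log2 fold change of -0.70 ± 0.33 (edgeR adjusted p = 0.179). When KO animals numbered below 100 were used, 10 KO/NTZ and 6 KO/PEG, both passed, with log2 fold changes of -1.43 ± 0.45 and -1.25 ± 0.37 (edgeR adjusted p = 0.0437 and 0.0327). These 2 genes were a share of the list near the 5.53% of all genes lower in that fit, so the count is no result about the list. The ranges of both genes overlapped between the groups with all animals.

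**Figure D3:**
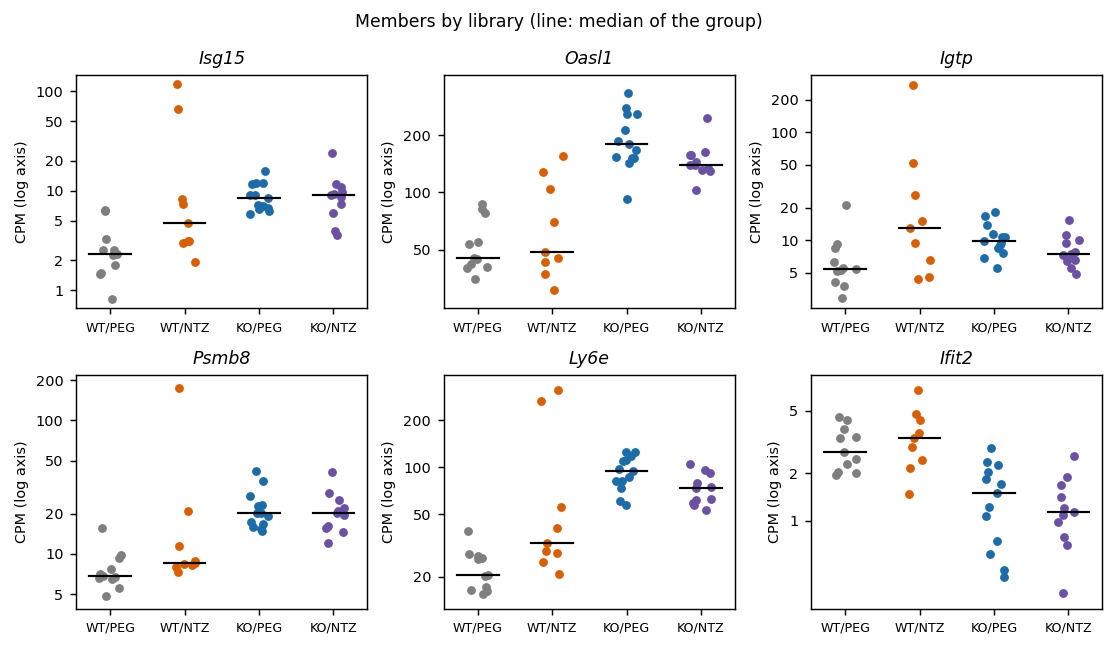
CPM of 6 genes in each library on a log axis, by group, with the median as a line. Isg15, Igtp, Psmb8 and Ly6e each show 1 or 2 WT/NTZ libraries far above the rest, Oasl1 and Ly6e are raised in both KO groups, and Ifit2 is low in both.

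In wild-type mice given NTZ, the values of the list were dominated by 2 animals. As the mean of the 36 tested genes, relative to WT/PEG on the log2 scale, animal B was at 3.57 and animal A at 2.98. The other 7 WT/NTZ libraries were between -0.09 and 0.78, and WT/PEG between -0.39 and 0.74. KO/PEG reached 0.12 to 1.13 and KO/NTZ -0.02 to 1.18. No library of any other group came near these 2. In animal B all 36 genes were above every WT/PEG library, where 16.8% of all genes were, and in animal A there were 34 (background 11.1%). The other 7 WT/NTZ libraries had 0 to 13 such genes (median 4), against 4.38% to 13.6% of all genes. The highest counts were 13 in WT_117_WT_YF and 11 in WT_103_WT_YF, where 13.6% and 5.51% of all genes were above. More than 2-fold above the WT/PEG mean were 29 of the 36 genes in animal A and all 36 in animal B, against 1.84% and 7.92% of all genes tested. Single libraries carry no replicate error, so these values describe 2 animals.

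**Figure D4:**
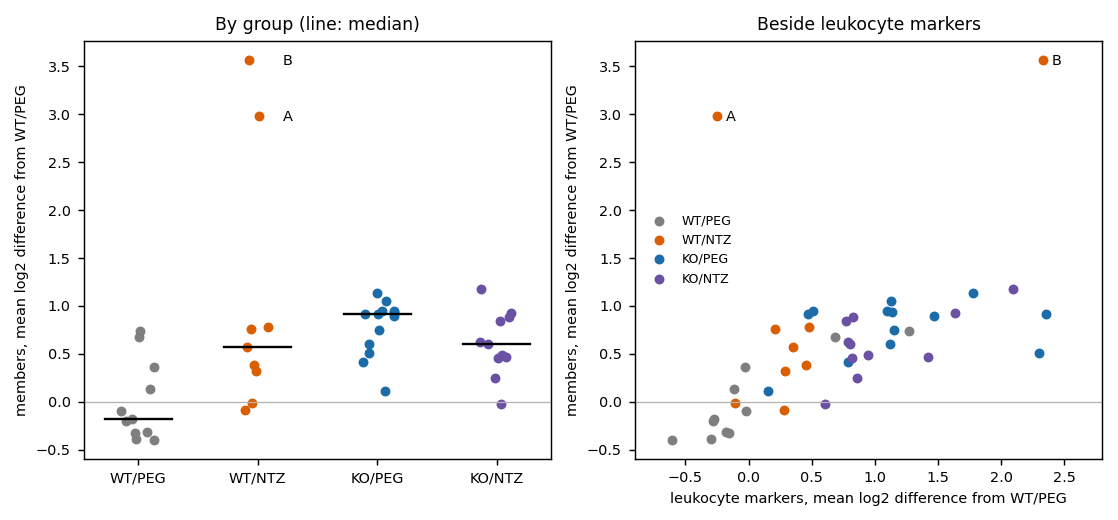
Mean log2 difference from WT/PEG over the 36 tested genes for each library, by group with the median as a line (left) and against the same mean over 6 leukocyte markers (right). Animals A and B are at 2.98 and 3.57 on the vertical axis, and at -0.25 and 2.33 on the horizontal one.

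The 2 animals differed in which genes were high. Of the 36 genes, 18 were higher in animal A and 18 in animal B. Animal A led for the ISG15 system, for all but 1 of the 8 antiviral effectors and for all 4 tested oligoadenylate synthetases. Isg15 was at 118.2 CPM in animal A and 66.3 in animal B, where the other 7 WT/NTZ libraries had 1.92 to 8.18 and WT/PEG at most 6.35. That was 42.0 and 23.5 times the WT/PEG mean.

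Others followed the same order. Ifit1 was at 63.8 CPM in animal A and 34.9 in animal B (other WT/NTZ 1.12 to 3.87), and Rsad2, which encodes the antiviral enzyme viperin, at 43.8 and 28.5 (1.33 to 3.804). Oas2 was at 69.3 and 47.8 CPM (1.04 to 6.14). Slfn4, a Schlafen family gene of myeloid cells, was the most extreme, at 66.7 CPM in animal A and 17.03 in animal B, beside 0.240 to 1.49 in the other WT/NTZ libraries. Slfn4 was thus 146 times the WT/PEG mean in animal A, a mean that rests on 71 counts over 11 libraries. For the pair Apol9a and Apol9b the sum was 101 CPM in animal A and 49.6 in animal B, with 1.53 to 9.89 in the other WT/NTZ libraries. Oas1a, outside the tests, was at 61.1 CPM in animal A and 0 in animal B, with 0 to 29.2 in the other WT/NTZ libraries. Its value was 0 in 8 of 11 WT/PEG libraries, with a maximum of 8.88 CPM there, and in 12 of 13 KO/PEG libraries. It shares sequence with Oas1g, and their sum was likewise 0 in animal B, so this gene is uncertain.

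Animal B led for interferon-inducible GTPases, the immunoproteasome and MHC class I genes, Irf1, Ly6a and Casp1. Igtp was at 274 CPM in animal B and 52.2 in animal A, with 4.40 to 26.1 in the other WT/NTZ libraries. Gbp2 was at 114 and 22 CPM (8.38 to 20.7), and Irgm1 at 178 and 62.7 (9.71 to 20.9). All 6 GTPases were higher in animal B.

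Several genes were many times higher in animal B than in animal A. Psmb8 was at 175 CPM in animal B and 21.1 in animal A (other WT/NTZ 7.36 to 11.5), a ratio of 8.29. Ly6a was at 242 and 22.7 CPM, within reach of the other WT/NTZ libraries (12.9 to 25.8). Gbp4 was at 66.3 and 4.42 CPM and Casp1 at 10.6 and 0.615 CPM, and for both of these animal A lay inside the WT/PEG range. Reads of Gbp4 were mostly (96.2%) on a transcript annotated for nonsense-mediated decay. B2m was at 1974 CPM in animal B and 622 in animal A, beside 367 to 457 in the other WT/NTZ libraries.

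Some genes were similar in both. Irf7 was at 128.7 CPM in animal A and 101 in animal B, Ly6e at 266 and 312, Oasl2 at 99.2 and 85.4, and Irf9 at 27.2 and 32.5. The ISRE core was in the 250 bases before the start of 8 of 14 genes higher in animal A and 7 of 14 higher in animal B, while the GAS letters were in 1 and 5 of them. These are counts of letters in few genes, and no difference was tested.

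**Figure D5:**
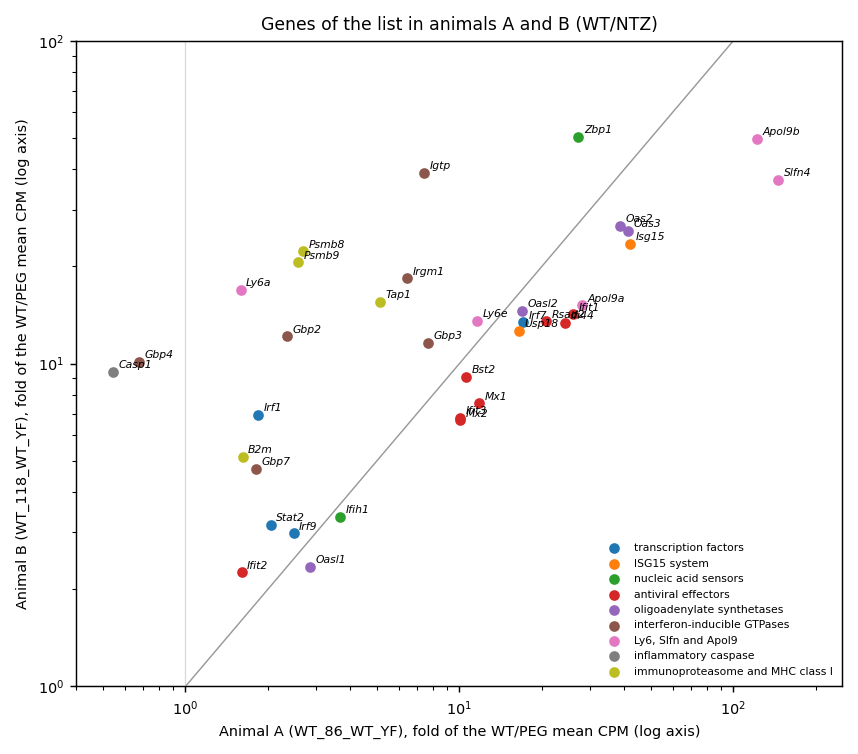
Level of each tested gene in animals A (WT_86_WT_YF, horizontal) and B (WT_118_WT_YF, vertical) as a multiple of the WT/PEG mean CPM, on log axes, with the line of equal values and colours for the roles of the genes. Slfn4 and Apol9b lie farthest to the right, and Gbp4, Casp1, Ly6a, Psmb8 and Psmb9 lie far above the line.

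Markers of other cells separated the 2 animals too. The 6 leukocyte markers summed to 30.4 CPM in animal A, inside the WT/PEG range of 26.1 to 83.7, and to 177 CPM in animal B. B and plasma cell markers were at 9.59 CPM in animal A and 316 in animal B (WT/PEG 11.7 to 69.4), and T and NK cell markers at 6.64 and 33.7 (WT/PEG 4.59 to 16.2). Macrophage markers were at 120 and 464 CPM (WT/PEG 96.6 to 238). In animal A, then, the list was high while these markers were not above the WT/PEG range. The 5 plasmacytoid dendritic cell markers summed to 157 CPM in animal A and 140 in animal B (WT/PEG 57.3 to 82.2). Of these, Bst2 is itself in the list, and made up 108 and 92.9 CPM of the sums. Siglech was at 0.369 CPM in animal A and 0.669 in animal B, beside 0.186 to 0.728 in the other WT/NTZ libraries. The value in animal A was near the floor of that library, 0.326 CPM, so no change in these cells can be read from it. Chief cell markers in animal B were at 75145 CPM, below the WT/PEG range of 96052 to 242140, and in animal A at 234720. Parietal cell markers in animal B were at 6029 CPM (WT/PEG 9310 to 15310) and surface mucous cell markers at 64227 CPM (WT/PEG 84950 to 117510), both below the range as well, while animal A lay inside it at 10534 and 88092 CPM. The part of other cells in the values of animal B was not tested.

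With all 9 WT/NTZ libraries in the fit, 28 of the 36 genes were higher than in WT/PEG and none lower (edgeR), against 1.03% of all genes higher and 0.00671% lower. They made up 28 of the 153 genes called higher. The median log2 fold change was 1.79, against -0.01 over all genes. Apol9b (4.32 ± 0.66, edgeR adjusted p = 0.00067), Slfn4 (4.27 ± 0.82, 0.00429), Zbp1 (3.25 ± 0.56, 0.00165), Oas2 (3.13 ± 0.50, 0.000769) and Isg15 (3.06 ± 0.54, 0.00193) had the highest values on the log2 scale. These calls rested on the 2 animals. Without both, none of the 36 genes passed (background 0.498%), although 10 had an unadjusted p under 0.05 (4.5% of all genes did) and 32 of 36 log2 fold changes were positive, with a median of 0.34. Without animal A alone 21 passed (background 1.08% higher), and without animal B alone 12 (background 0.381%). With both animals included, no gene of the list passed by limma-trend (background 0.0134%) or when only the WT groups were in the fit (0.0%), while DESeq2 called 24 (1.16% higher). Markers of squamous epithelium, the lining of the neighbouring forestomach, also had unequal levels in these groups. The sum of 6 such markers had a median of 2.13 CPM (0.881 to 473) in WT/PEG and of 623 CPM in WT/NTZ, with 45.8 CPM in animal A, 623 CPM in animal B and 1.23 to 3064.5 CPM in the other 7. None of the 6 passed, with or without animals A and B, none was at 0 throughout a group, and their part in the results was not tested.

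In the 7 other WT/NTZ libraries, ranges overlapped those of WT/PEG for every tested gene. Oas2 was above every WT/PEG library in 4 of the 7, at 1.04 to 6.14 CPM with a median of 3.85. Casp1 did so in 4 of 7, at 0.836 to 3.75 CPM with a median of 2.64. Apol9a followed in 3 of 7. Without animals A and B the log2 fold changes of Oas2 and Casp1 were 1.14 (edgeR adjusted p = 0.118) and 1.04 (edgeR adjusted p = 0.271). Among the WT/PEG libraries, those titled WT121_WT_PEG and WT_120_WT_PEG had the highest mean over the list, at 0.74 and 0.68, and the first also had the highest leukocyte markers of its group, at 83.7 CPM.

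Compared under NTZ, KO mice had lower values than WT mice for 27 of the 36 genes and higher ones for 1, Oasl1 (background 72.4% of all genes, 36.8% lower). The direction belonged to the same 2 animals. Without them 14 genes were higher and 5 lower (background 35.8% and 35.6%), and 6 genes passed in the same direction in both fits. Those 6 were Oasl1, higher by 1.48 on the log2 scale without the 2 animals, and Ifit2, Gbp2, Gbp3, Gbp4 and Gbp7, lower, with log2 fold changes from -2.61 (Gbp7) to -0.93 (Gbp4). Genes that turned from lower to higher included Isg15 (from -1.34 to 1.08) and Zbp1 (from -1.14 to 1.77). The WT/NTZ libraries also enter the comparison with WT/PEG.

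When the response to NTZ was compared between the genotypes, the difference passed for 15 of the 36 genes, all more negative in KO, against 0.96% of all genes and 0.718% in that direction. The largest was that of Slfn4 (-4.52 ± 1.07, edgeR adjusted p = 0.0254), followed by Zbp1 (-3.68 ± 0.73) and Apol9b (-3.56 ± 0.85). Without animals A and B none passed (background 0.332%), although 16 had an unadjusted p under 0.05, where 8.66% of all genes did. Without animal A alone there were 9, all negative (background 0.659%), and without animal B alone 6, all negative (background 0.394%).

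Transcripts of the interferons themselves were at or near 0. No gene of the 21 ligands passed the filter on low counts. Ifnb1 and Ifna15 each had 1 count in 1 KO/PEG library, and 15 ligand genes, all the alpha interferon genes other than Ifna15 among them, were at 0 in every library. The type II interferon gene Ifng was above 0 in 9 libraries, with the highest value, 0.486 CPM or 8 counts, in animal B, and was at 0 in animal A. Ifne, which is made by epithelium of the reproductive tract, was seen in most libraries, at no more than 1.02 CPM. At these depths a count of 0 allows up to 0.137 to 0.495 CPM per library, so low transcription was not detectable.

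Receptors and signalling genes outside the list are given next for KO/PEG against WT/PEG, where the background was 74.6% of all genes called, 37.5% higher and 37.2% lower. Shares near these are no result about a list. Of 6 interferon receptor subunits, 4 were higher in KO/PEG than in WT/PEG and none lower. Ifngr2, of the type II receptor, was at 56.7 ± 8.46 CPM (SD, n = 11) and 134 ± 38.8 CPM (n = 13), a log2 fold change of 1.24 ± 0.14, Ifnar2 of the type I receptor rose by 1.14 ± 0.13, and Il10rb by 0.47 ± 0.06. Of 5 genes of JAK-STAT signalling, Stat3 rose (0.44 ± 0.08) while Jak2 (-0.92 ± 0.14) and Jak1 (-0.59 ± 0.13) fell. Among 6 feedback regulators 4 rose and 1 fell, with Ptpn2, a phosphatase of Janus kinases, at 1.54 ± 0.18 and Socs3 at 1.47 ± 0.20 higher and Pias1 at -0.47 ± 0.07 lower. Ptpn2 was higher still in KO/NTZ (log2 fold change 0.56 ± 0.17 against KO/PEG, edgeR adjusted p = 0.0438). It was the 1 gene called in that comparison among all the lists of this paragraph, where 2.97% of all genes were higher. Of 13 sensing and induction genes, 7 rose and 2 fell in KO/PEG, among them Ikbke (1.12 ± 0.12), Tmem173, which encodes STING (1.82 ± 0.21), and Irf3 (1.31 ± 0.19). Dhx58, an RNA helicase of the same pathway as Ifih1, passed in WT/NTZ against WT/PEG (1.80 ± 0.37, edgeR adjusted p = 0.00714) but not without animals A and B.

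Other genes known to be induced by interferon were counted in the same way. Of 46 tested, 18 were higher and 4 lower in KO/PEG (background 37.5% and 37.2%, so the count of higher genes was near it), led by the membrane proteins Ifitm2 (1.17 ± 0.11), Ifitm1 (1.87 ± 0.20) and Ifitm3 (1.21 ± 0.15). In KO/NTZ against KO/PEG, 2 of the 46 rose and 1 fell, near the background of 2.97% and 2.6% of all genes. Ifi27l2a (1.37 ± 0.36, edgeR adjusted p = 0.0157) and Ifitm1 (0.67 ± 0.19, 0.0252) rose and Slfn5 (-1.43 ± 0.43, 0.0393) fell. Of 16 other MHC class I genes, 14 rose in KO/PEG and 1 fell, beside the same background, with the proteasome genes Psme2, Psmb10 and Psme1 at 1.34 ± 0.16, 2.19 ± 0.29 and 1.10 ± 0.15.

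In WT/NTZ against WT/PEG, 16 of these 46 genes and 6 of the 16 MHC class I genes were higher (background 1.03%), and 0 of either without animals A and B (background 0.498%). The genes named below were picked as examples, after their values were seen, from those that passed with both animals. Which animal led was not counted over all of these genes. Cxcl9, a chemokine known to answer type II interferon, was at 37.5 CPM in animal B and 1.72 in animal A, where the other 7 WT/NTZ libraries had 1.56 to 4.69. Tgtp1, an interferon-inducible GTPase, was at 71.0 and 2.46 CPM (1.248 to 5.34), and Iigp1, of the same family, at 135 and 9.71 (2.23 to 10.4). Ifit1bl1, an Ifit relative, ran the other way at 64.2 CPM in animal B and 119.6 in animal A (0.409 to 3.804), as did the RNA helicase gene Ddx60 at 51.1 and 75.3 (2.56 to 8.74). Slfn2, Rtp4 and Xaf1 were nearer to each other, at 30.1 and 29.3, 30.8 and 25.2, and 22.3 and 25.8 CPM. Of the MHC class I genes, H2-Q7 was at 74.4 CPM in animal B and 6.88 in animal A (2.64 to 5.34), and H2-K1 at 989 and 243 (80.2 to 160).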

How the data were processed

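Gastric corpus RNA was sequenced as single reads after a stranded poly(A) library kit. Per the labels, the authors used kallisto 0.42.4 with the GRCm38 transcriptome, and deposited an estimated count for each of 94080 transcripts in 44 libraries, without normalization. How kallisto was told to treat strand is not given in the sources used here. The study tested its data with Sleuth, which needs a resampling output of kallisto that was not used here.

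Estimated counts were summed per gene with GENCODE vM21 for 92372 transcripts. The other 1708 held 0.329% to 1.3% of the counts. Sums were rounded, filtered with filterByExpr (minimum count 10, minimum total 15), normalized by TMM and tested with edgeR 4.0.16 under R 4.3.3. All groups were in one fit without covariates, with Benjamini-Hochberg adjustment over 14901 genes at a threshold of 0.05. On counts simulated with the mean levels and totals of these libraries, the test of KO/NTZ against KO/PEG was checked for its error rate. The simulation gave every gene the same spread and held no library that stood apart. It therefore says nothing about calls that rest on animals A and B. Totals were 6065084 to 21945124 per library. Each SE of a log2 fold change and each SD holds the spread between libraries. The floor, taken as 3 counts, covers counting error only. TPM were computed from the counts and annotated lengths. The level over the list is the mean of log2 CPM (prior count 2). Replicates are libraries with separate animal numbers, except that 2 WT/PEG libraries carry the number 172, and that the number 110 occurs once in KO/PEG and once in KO/NTZ. Whether mice shared litters is not stated, so p-values measure the spread between these libraries. The labels give 13 KO/PEG libraries, more than the animals the study describes in that group.

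The 37 genes and the other gene lists were chosen with earlier results of these data known, and support nothing by their choice. All 37 are described. Of the other lists, genes were named if they passed for NTZ against vehicle, or were among the 3 with the smallest p in KO/PEG against WT/PEG, and in the last paragraph some of the former were picked as examples after their values were seen. Alternatives were RLE size factors, DESeq2 1.42.0, limma-trend (limma 3.58.1), no filter, only the groups compared, the libraries of animal 172 summed, the libraries numbered 110 left out, KO animals below 100, and protein-coding transcripts only. The fits without animal A, animal B or both, without WT121_WT_PEG, and with KO animals 100 and above only, were chosen after seeing the data. Promoter windows came from RefSeq (GRCm38.p6). Plots used Python 3.11.15 and matplotlib 3.10.9.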

Additional observations from a re-analysis of the deposited data

Results flagged for a closer look

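Within WT/NTZ, a single library lay far from the other 8 for 14 of the 36 genes. This was judged by the gap to its nearest neighbour as a share of the range over the group (above 0.493). That is Dixon's 95% critical value for 9 samples, which chance exceeds in about 1 group in 20 if values are normally distributed. Animal B was this library for 12 genes, with shares of Irf1 (0.835), Gbp2 (0.871), Gbp4 (0.881), Gbp7 (0.729), Igtp (0.823), Irgm1 (0.686), Ly6a (0.944), Casp1 (0.687), Psmb8 (0.918), Psmb9 (0.914), Tap1 (0.706) and B2m (0.841). Animal A was it for Slfn4 (0.748) and Apol9b (0.597). For most other genes both libraries were high, so neither stood alone by this measure. Whether the CPM were normally distributed was not checked. The measure was not taken over all genes, so whether these counts are particular to the list was not tested.

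For 15 genes KO and WT mice differed in their response to NTZ by the test of the difference itself (edgeR, adjusted p under 0.05, all groups in the fit). The differences, KO minus WT on the log2 scale, were Irf7 (-2.35), Irf9 (-0.82), Isg15 (-2.99), Usp18 (-2.37), Zbp1 (-3.68), Ifi44 (-2.65), Oas2 (-3.47), Oasl2 (-2.77), Igtp (-3.03), Irgm1 (-2.07), Ly6e (-2.31), Slfn4 (-4.52), Apol9b (-3.56), Casp1 (-2.15) and Tap1 (-1.80). None passed without animals A and B.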

How the results depend on the processing

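Of 71 recomputed counts and levels, 59 stayed within 1.5 times of the reported count or 1 SD of the reported level with their direction. In WT/NTZ against WT/PEG the count of 28 became 0 by limma-trend, 0 with only the groups compared, 12 without animal B and 0 without animals A and B (21 without animal A, and 12 to 29 over all fits that left out 1 library). In KO/NTZ against WT/NTZ it became 17 by limma-trend, and 19 without animals A and B, where the direction reversed to 14 higher and 5 lower. The count of 15 for the difference of the NTZ effects became 0 by limma-trend, 6 with KO animals below 100, 9 without animal A, 6 without animal B and 0 without both, and could not be fitted with only the groups compared, since it needs all 4. In KO/NTZ against KO/PEG the count of 0 became 2 with KO animals below 100, near the background of 5.53% lower in that fit. That in KO/PEG against WT/PEG lay between 16 and 24 throughout. It was 16 with KO animals 100 and above, where 13 genes were higher, near the background of 35.9% in that fit. The fits without single WT/NTZ libraries, without WT121_WT_PEG and with KO animals 100 and above were chosen after seeing the data. The cause of these changes was not tested beyond the libraries named.

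Of 90 results of single genes past the threshold, 19 log2 fold changes changed sign under an alternative, 18 of them in KO/NTZ against WT/NTZ. Without animals A and B these were Isg15 (1.08), Zbp1 (1.77), Ifit1 (0.38), Mx2 (0.52), Oas2 (0.25), Oas3 (1.22), Oasl2 (0.50), Irgm1 (0.17), Slfn4 (1.19), Apol9a (0.81), Apol9b (1.32) and Tap1 (0.42), and in WT/NTZ against WT/PEG Ifit1 (-0.024). By limma-trend they were Isg15 (0.049), Zbp1 (0.55), Oas3 (0.33), Apol9a (0.060) and Apol9b (0.25), and by DESeq2 Zbp1 (0.0045).

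No paired analysis was possible because the groups compared share fewer than 2 animal numbers. Counts of a few reads, as for Apol9b, Slfn4 and Oas3 in WT/PEG, limit the precision of fold changes, and kallisto divides reads between near-identical copies (Apol9a and Apol9b, Ifit3 and Ifit3b, Oas1a and Oas1g) and among Gbp and Slfn genes.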
